A study of Mus musculus with 4 samples.

Results

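The extracellular matrix and adhesion receptor genes of mouse embryonic stem cells (mESCs) were examined in RNA-seq libraries of WT and Npac KO cells. The genes were chosen by name from the deposited count table: protein-coding genes named as collagen chains (Col followed by type and chain), laminin chains (Lama, Lamb, Lamc), integrin chains with a numbered alpha or beta, and Fn1, Nid1, Nid2, Hspg2, Sparc and Agrn. The rule found 81 of the 56748 genes listed, of which 44 were collagens, 11 laminins, 12 integrin alpha genes, 8 integrin beta genes and 6 other matrix genes. All 4 libraries came from E14 cells, a mouse ES cell line grown without feeder cells on gelatin-coated plates in serum with LIF. WT1 and WT2 were from unmodified E14 cells. KO1 and KO2 were from 2 Npac KO lines, each grown from a colony picked after Cas9 editing with guides against exon 3 and puromycin selection, so each KO library stands for 1 line. The labels give no treatment or time point. The comparison asks which genes differ in mRNA level when Npac, a chromatin reader protein that binds nucleosomes of transcribed genes, is lost. The sources used here do not say that the WT libraries came from separate cultures, so the p-values measure only the spread between these samples.

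Basement membranes are thin sheets of matrix that lie under epithelia and around the early epiblast. Laminins, each built from an alpha, a beta and a gamma chain, assemble into a network on the cell surface, and a second network of type IV collagen is joined to it through nidogens and the heparan sulfate proteoglycans perlecan (Hspg2) and agrin (Agrn). Integrins, each a pair of an alpha and a beta chain, bind this matrix and fibronectin and link them to actin, and in mESCs they take part in the choice between self-renewal and differentiation.

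The promoters of 5 of these genes are shown because the results turn on them: Lamb1 and Lamb2, the beta chain genes that moved in opposite directions, Itga5, the integrin gene with the largest fall, and Col4a1 and Col4a2, which lie head to head and did not pass the test. The sequences are RefSeq windows of GRCm38.p6 from 250 bases before to 50 bases after each start site, written 5′ to 3′ on the strand of the gene, with CCAAT and GGGCGG motifs on either strand in capitals (ATTGG and CCGCCC are their reverse complements). The windows are chr12:31265043-31265342 on the plus strand for Lamb1, chr9:108479612-108479911 on the plus strand for Lamb2, chr15:103366742-103367041 on the minus strand for Itga5, chr8:11312777-11313076 on the minus strand for Col4a1 and chr8:11312555-11312854 on the plus strand for Col4a2.
Lamb1: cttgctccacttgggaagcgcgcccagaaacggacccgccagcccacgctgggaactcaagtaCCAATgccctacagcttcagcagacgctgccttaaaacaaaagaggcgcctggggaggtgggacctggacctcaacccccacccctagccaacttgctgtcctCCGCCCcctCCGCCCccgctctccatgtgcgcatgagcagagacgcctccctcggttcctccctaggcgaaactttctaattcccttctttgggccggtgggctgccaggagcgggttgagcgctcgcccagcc
Lamb2: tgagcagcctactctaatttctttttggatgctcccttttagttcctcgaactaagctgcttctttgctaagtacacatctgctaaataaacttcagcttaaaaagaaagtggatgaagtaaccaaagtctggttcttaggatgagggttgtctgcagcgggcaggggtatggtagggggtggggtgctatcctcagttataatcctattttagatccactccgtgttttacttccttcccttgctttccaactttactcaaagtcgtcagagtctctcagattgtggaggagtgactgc
Itga5: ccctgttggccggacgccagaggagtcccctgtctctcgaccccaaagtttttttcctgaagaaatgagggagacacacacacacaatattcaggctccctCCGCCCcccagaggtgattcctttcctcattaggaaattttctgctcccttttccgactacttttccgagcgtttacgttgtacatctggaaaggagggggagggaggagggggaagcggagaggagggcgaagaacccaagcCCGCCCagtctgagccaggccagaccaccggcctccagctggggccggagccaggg
Col4a1: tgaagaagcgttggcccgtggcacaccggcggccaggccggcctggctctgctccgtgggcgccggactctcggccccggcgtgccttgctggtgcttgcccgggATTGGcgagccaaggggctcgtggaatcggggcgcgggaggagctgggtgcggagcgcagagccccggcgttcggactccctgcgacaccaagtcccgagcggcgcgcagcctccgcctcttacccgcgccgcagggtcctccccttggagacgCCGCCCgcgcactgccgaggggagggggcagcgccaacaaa
Col4a2: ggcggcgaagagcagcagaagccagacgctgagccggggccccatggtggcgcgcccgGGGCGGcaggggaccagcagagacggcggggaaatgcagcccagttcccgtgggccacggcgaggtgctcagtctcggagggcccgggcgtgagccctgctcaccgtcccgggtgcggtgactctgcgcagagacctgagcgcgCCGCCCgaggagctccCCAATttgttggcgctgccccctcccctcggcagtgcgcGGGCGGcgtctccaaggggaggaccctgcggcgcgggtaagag

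The windows of Lamb1 and Lamb2 differed in composition. Lamb1 held 18 CpG dinucleotides, 63.7% G and C, 1 CCAAT motif and 2 GGGCGG motifs, whereas Lamb2 held 4 CpG dinucleotides, 44.0% G and C and neither motif. Itga5 held 13 CpG dinucleotides and 2 GGGCGG motifs. The Col4a1 and Col4a2 windows, with 37 and 33 CpG dinucleotides, overlapped by 78 bases, which hold both start sites. A window was found for 59 of the 81 genes (66 windows, since some genes have several starts). The median window of these genes held 12 CpG dinucleotides, and the median over all 32851 RefSeq windows was 7. GGGCGG was found in 37 of the 66 windows and in 35.7% of all windows, CCAAT in 17 of the 66 and in 37.4%, and TATAAA in 5 of the 66 and in 13.6%. The 3 motifs were searched on both strands, and no matches of different motifs overlapped in the windows shown. A match describes the letters of the window only.

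The libraries held 15850805 to 16965120 counted reads. Reads were compared within a gene as TMM-normalized CPM, and between genes as the FPKM deposited by the authors, which divides by gene length. In bulk RNA, fewer cells of a type and less RNA per cell cannot be told apart. Glyr1, the symbol of Npac in the files, had 3961 and 3115 reads in WT1 and WT2 and 744 and 888 reads in KO1 and KO2, a log2 fold change of -2.14 (SE 0.23, adjusted p = 0.00174). A gene was called up- or down-regulated at a Benjamini-Hochberg adjusted p under 0.05 in edgeR's quasi-likelihood test and a fold change over 1.5. Of the 18157 genes tested 14741 were protein-coding, as the matrix and integrin genes are, and of those 21.7% were called, 11.5% up and 10.2% down.

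Of the 81 matrix and integrin genes, 68 passed the filter on low counts. The other 13 had at most 15 reads in any library, and 6 of these had 3 reads or fewer in every library, which is the level that a count of 0 allows. Col3a1, a main fibrillar collagen of connective tissue, had no reads at all. Of the 68 tested genes 20 (29.4%) were called, beside 21.7% of protein-coding genes. In Npac KO cells 11 rose and 9 fell, which is 16.2% up and 13.2% down beside the 11.5% and 10.2% of protein-coding genes. The median log2 fold change was 0.12, and that of the protein-coding genes was 0.02. In 22 genes (32.4%) each KO value exceeded each WT value, in 20 genes (29.4%) each KO value was the lower, and in 26 genes the groups overlapped. Among protein-coding genes these shares were 34.3% and 31.9%. The genes did not move as a block, since the rises and falls were of similar number and the collagens, laminins and integrin alpha genes each held both.

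The number of calls fell without either KO library and rose without either WT library, among these genes and among all genes tested. A lone library was taken to vary like the other pair. The WT pair was more than 2-fold apart in 20 of the tested matrix and integrin genes, the KO pair in 8. The 20 leave out Col14a1, with 19 reads in WT1 and 0 in WT2, for which no fold can be given. A call lost without a KO library, here or below, thus does not set these genes apart. The counts that follow are of the matrix and integrin genes. Without KO1, 6 genes rose and 4 fell, and without KO2 4 rose and 6 fell. Of the 20 genes called with all libraries, 10 were still called without KO1 and 10 without KO2, and all 20 were still called without WT1 or without WT2. With WT1 left out 15 genes rose and 19 fell, and with WT2 left out 22 rose and 16 fell. The genes Itga5, Lama1, Lama3, Lamb1 and Lamb2 were called under each of the 16 alternatives tried, and none of the 20 changed direction in any of them. In the files' own coordinates, which are not those of the windows above, Itga5 (ENSMUSG00000000555) lies on chromosome 15 from 103252713 to 103275190, Lama1 (ENSMUSG00000032796) on chromosome 17 from 68004254 to 68129642 and Lama3 (ENSMUSG00000024421) on chromosome 18 from 12466876 to 12716070. Lamb1 (ENSMUSG00000002900) lies on chromosome 12 from 31315233 to 31379643 and Lamb2 (ENSMUSG00000052911) on chromosome 9 from 108356935 to 108367729.

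**Figure D1:**
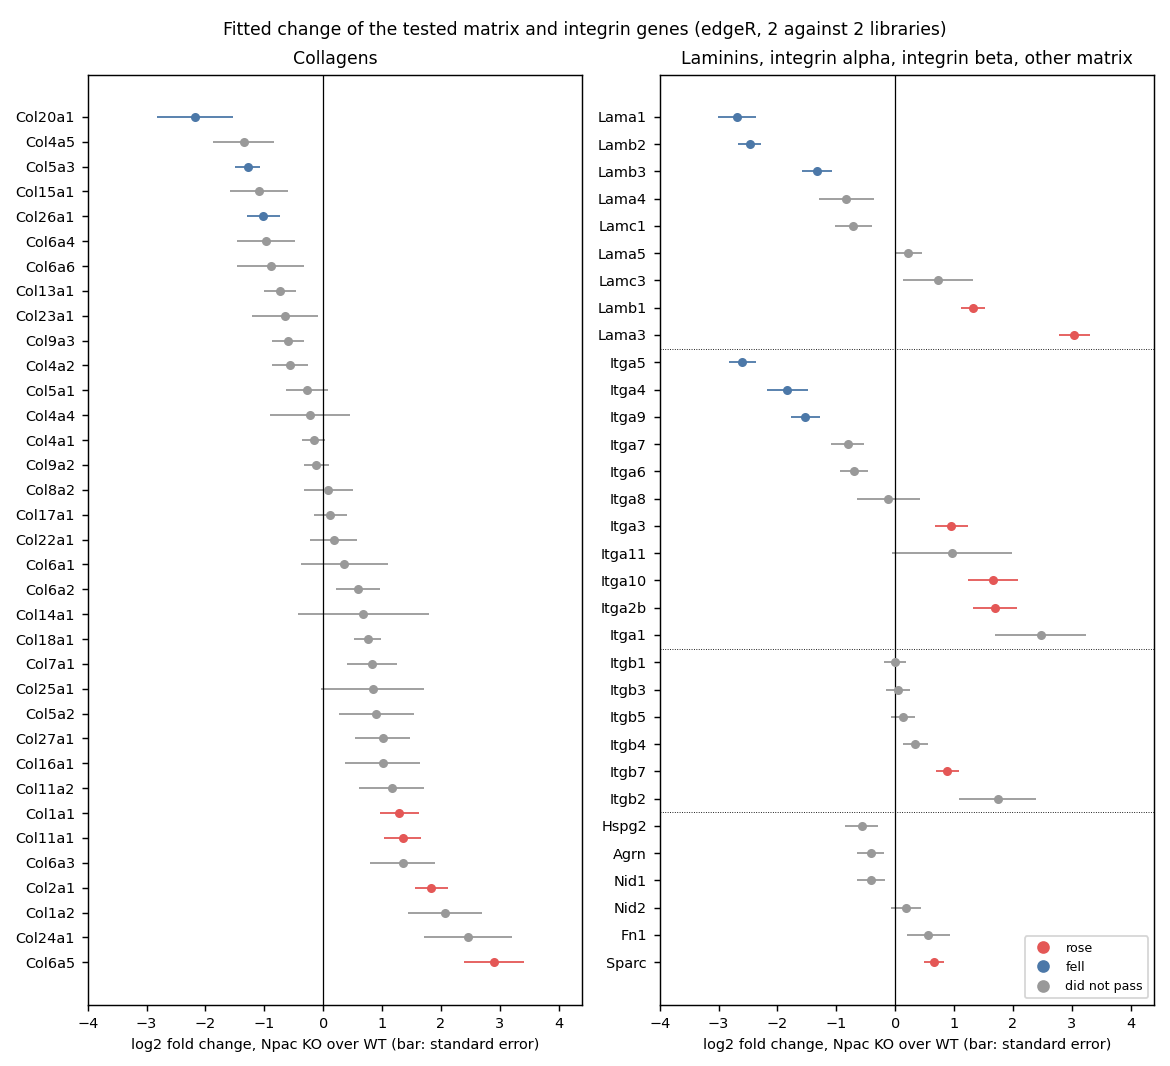
Log2 fold change of Npac KO over WT cells (x axis) for the tested genes reported here (y axis), with collagens on the left and laminins, integrins and other matrix genes on the right. Points are the edgeR estimates and bars their standard errors; red genes rose, blue genes fell and grey genes did not pass both thresholds. Lama3 lies farthest to the right at 3.04 and Lama1 farthest to the left at -2.69.

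The laminin genes moved both ways. Of the 10 tested laminin genes 2 rose (Lama3 and Lamb1) and 3 fell (Lama1, Lamb2 and Lamb3). Lama1 encodes the alpha chain of the main laminin of the early embryo, and was at 409 CPM in WT1, 225 CPM in WT2, 56.7 CPM in KO1 and 41.9 CPM in KO2. Both KO libraries were well below both WT libraries, although the WT libraries themselves stood 1.82-fold apart. Lama1 fell by 2.69 on the log2 scale (SE 0.32, adjusted p = 0.00245), which is 6.44-fold. Without WT1 the log2 fold change was -2.22, and without WT2 it was -3.06.

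Lama3, the alpha chain of the laminin of skin and other stratified epithelia, moved the other way. It had 144 and 267 reads in WT1 and WT2 and 1506 and 1856 reads in KO1 and KO2, or 9.43, 15.3, 96.9 and 107 CPM. The groups were far apart, and the rise was 8.24-fold (log2 fold change 3.04, SE 0.27, adjusted p = 0.000858). Lama5, the alpha chain found in most basement membranes, was at 529 and 391 CPM in WT cells and 605 and 464 CPM in KO cells. Its groups overlapped and it did not pass the test (log2 fold change 0.22, SE 0.23, adjusted p = 0.530).

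The beta chains moved as opposites. Lamb1 was at 85.5 and 91.5 CPM in WT cells and at 253 and 189 CPM in KO cells, all KO values above all WT values. It rose 2.50-fold (log2 fold change 1.32, SE 0.20, adjusted p = 0.00603). Lamb2, the beta chain best known from the neuromuscular junction and the kidney filter, was at 170 and 200 CPM in WT cells and at 33.6 and 32.9 CPM in KO cells. The KO pair was nearly equal and far below the WT pair, and Lamb2 fell by 2.47 on the log2 scale (SE 0.19, adjusted p = 0.000526), the smallest adjusted p of the 68 genes. Lamb3, the beta chain that pairs with the Lama3 product in skin, was at 29.5 and 39.5 CPM in WT cells and 12.4 and 15.1 CPM in KO cells, and fell by 1.33 (SE 0.25, adjusted p = 0.0117). Lamb3 thus fell while Lama3 rose, but it was not called without KO1 (adjusted p = 0.0768). The span of Lamb3 overlaps G0s2 on the other strand (309 and 265 reads in WT, 15 and 66 in KO) and Gm37691 on its own strand (100 and 200 reads in WT, 6 and 14 in KO), and since strand use in counting is not stated, reads of these genes cannot be told apart where they overlap.

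Lamc1, the gamma chain of most laminins, was the laminin gene of highest FPKM. WT1 was at 881 CPM and WT2 at 441, with KO1 at 432 and KO2 at 375, so that WT1 alone stood apart and WT2 was close to KO1. Its log2 fold change was -0.71 (SE 0.31, adjusted p = 0.140). Without WT2 it was -1.13 (adjusted p = 6.64e-06) and without WT1 it was -0.15 (adjusted p = 0.598).

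Per length, the chain makeup of the laminin mRNA differed between genotypes. Lama1 made up 47.0% and 39.1% of the summed FPKM of the 5 alpha chains in WT1 and WT2, and 8.58% and 7.83% in KO1 and KO2. Lama3 went from 0.976% and 2.39% to 13.2% and 18.0%, and Lama5 from 51.7% and 57.6% to 77.9% and 73.7%. Among the beta chains Lamb2 held 68.1% and 68.3% in WT cells and 16.8% and 20.2% in KO cells, while Lamb1 held 21.0% and 19.2% and then 77.5% and 71.2%. The ratio of Lamb1 to Lamb2 FPKM was 0.308 and 0.281 in WT cells and 4.61 and 3.52 in KO cells. The most abundant beta chain mRNA was therefore Lamb2 in both WT libraries and Lamb1 in both KO libraries. The summed FPKM of the alpha chains overlapped between genotypes, at 89.3 and 59.1 in WT and 68.0 and 54.3 in KO. The beta sum was lower in both KO libraries (32.8 and 26.3) than in WT cells (40.8 and 47.6). So was the gamma sum, at 110.5 and 57.5 in WT and 55.5 and 47.7 in KO. All laminin genes together summed to 240.6 and 164.2 in WT and 156.3 and 128.3 in KO. These are shares and sums of mRNA, described without a test, and say nothing of the protein trimers.

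**Figure D2:**
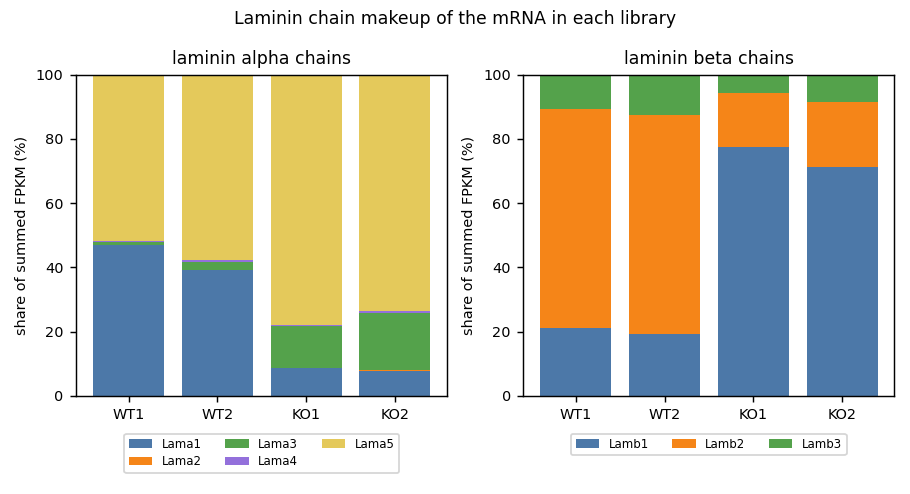
Share of the summed FPKM (y axis, percent) taken by each laminin chain gene in each library (x axis), for alpha and beta chains. Lamb2 fills 68.1% and 68.3% of the beta bar in WT cells and Lamb1 77.5% and 71.2% in KO cells.

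The integrin alpha genes also moved both ways, and 6 of the 11 tested genes were called, 3 up and 3 down. Unlike that of the laminin alpha chains, their summed FPKM was lower in both KO libraries (53.5 and 63.2) than in WT cells (118 and 99.8). Itga5, whose product pairs with that of Itgb1 to form the main fibronectin receptor, was the alpha gene of highest FPKM in WT cells. It was at 329 and 266 CPM in WT1 and WT2 and at 41.5 and 56.7 CPM in KO1 and KO2. Every KO value was far below every WT value, and Itga5 fell by 2.60 on the log2 scale (SE 0.23, adjusted p = 0.000896), a 6.06-fold fall. With each library left out in turn the log2 fold change stayed between -2.83 and -2.40.

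Itga4 and Itga9, which encode the related alpha chains that bind fibronectin, tenascin and Vcam1, both fell. Itga9 was at 41.5 and 35.0 CPM in WT cells and 15.1 and 11.4 CPM in KO cells (log2 fold change -1.53, SE 0.24, adjusted p = 0.00674). Itga4, less abundant, had 148 and 196 reads in WT cells and 46 and 50 reads in KO cells (log2 fold change -1.84, SE 0.35, adjusted p = 0.0113). In both genes the groups did not overlap. Itga9 was not called without KO2 (adjusted p = 0.0507). Itga4 was not called without KO1 or without KO2, and its span overlaps Cerkl on the other strand (85 and 41 reads in WT, 23 and 37 in KO).

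Among the laminin-binding alpha chains Itga3 rose, and Itga6 and Itga7 did not pass the test. Itga3 was at 47.8 and 77.3 CPM in WT1 and WT2 and at 102 and 141 CPM in KO1 and KO2. The rise was 1.94-fold (log2 fold change 0.95, SE 0.27, adjusted p = 0.0438), and it was not called without KO2 (adjusted p = 0.249). Itga6, which marks many stem cells and pairs with Itgb1 or Itgb4, was at 313 CPM in WT1 and 203 in WT2, and at 165 in KO1 and 152 in KO2. Both KO values were lower, at a log2 fold change of -0.71 (SE 0.24, adjusted p = 0.0675). The DESeq2 Wald test called Itga6 (-0.71, adjusted p = 0.0395), and without WT2 the edgeR log2 fold change was -0.99. Itga7 had a log2 fold change of -0.81 (SE 0.28, adjusted p = 0.0764).

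The other rises were in genes of lower level. Itga2b, the alpha chain of the platelet fibrinogen receptor, was at 6.48 and 12.7 CPM in WT cells and 24.8 and 37.7 CPM in KO cells (log2 fold change 1.70, SE 0.37, adjusted p = 0.0179), and was not called without KO2. Itga10, a collagen-binding chain of cartilage, had 24 and 33 reads in WT cells and 99 and 80 in KO cells (log2 fold change 1.66, SE 0.43, adjusted p = 0.0315), and was not called without either KO library. Itga1, another collagen-binding chain, was near the limit of the counts and just outside the threshold (log2 fold change 2.47, SE 0.77, adjusted p = 0.0560). The 4 collagen-binding genes together summed to 0.361 and 0.509 FPKM in WT cells and 1.36 and 1.30 FPKM in KO cells, against 44.0 and 37.6 FPKM in WT and 36.8 and 41.6 FPKM in KO for the 3 laminin-binding genes. The collagen-binding genes had the lowest sum of the alpha classes in all 4 libraries.

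The beta chains were steadier. Itgb1, the common partner of most of these alpha chains, was at 212 and 187 CPM in WT1 and WT2 and at 213 and 185 CPM in KO1 and KO2. The groups overlapped almost fully (log2 fold change -0.01, SE 0.18, adjusted p = 0.985). Itgb5, a vitronectin receptor chain, was also near 0 at 0.13 (SE 0.20, adjusted p = 0.684). Itgb7, known as the beta chain of gut-homing lymphocytes, was at 28.0 and 31.7 CPM in WT cells and 57.8 and 52.5 CPM in KO cells. It was the only beta gene called, with a 1.85-fold rise (log2 fold change 0.89, SE 0.19, adjusted p = 0.0182), and it was not called without KO1 or without KO2. The summed FPKM of the alpha genes was 118 and 99.8 in WT cells and 53.5 and 63.2 in KO cells, while that of the beta genes was 84.0 and 76.0 in WT and 95.8 and 86.4 in KO. Itga5 supplied 56.1% and 53.6% of the alpha sum in WT cells and 15.7% and 17.9% in KO cells, and Itga3 supplied 7.04% and 13.5% and then 33.2% and 38.3%. The ratio of Itga5 to Itgb1 FPKM was 1.28 and 1.18 in WT cells and 0.162 and 0.253 in KO cells. The largest single alpha share was thus that of Itga5 in both WT libraries and of Itga3 in KO2, and in KO1 Itga6 (33.6%) and Itga3 (33.2%) were nearly equal.

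**Figure D3:**
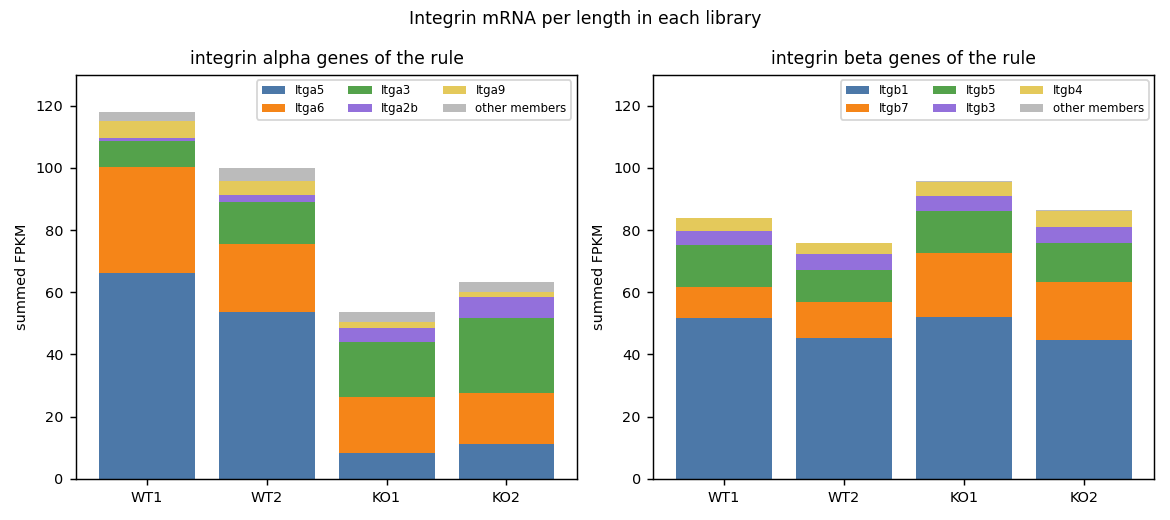
Summed FPKM (y axis) of the integrin alpha genes (left) and integrin beta genes (right) in each library (x axis), with the 5 main genes of each family in colour and the others in grey. The alpha bars reach 118 and 99.8 in WT cells and 53.5 and 63.2 in KO cells, and most of the gap is the blue Itga5 segment; the Itgb1 segment of the beta bars is of like height in all 4 libraries.

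Fibronectin, the ligand of the Itga5 product, did not follow its receptor. Fn1 was at 1201 CPM in WT1 but 546 in WT2, and at 1517 and 1063 CPM in KO1 and KO2. WT1 lay between the KO libraries and WT2 far below, so the groups overlapped and the gene was not called (log2 fold change 0.56, SE 0.36, adjusted p = 0.296). Leaving out a WT library moved the value: without WT1 the log2 fold change was 1.21 (adjusted p = 0.000497), and without WT2 it was 0.10 (adjusted p = 0.770). Sparc, a collagen-binding matricellular protein, had the highest mean FPKM of the 81 genes. It was at 279 and 277 CPM in WT cells and 449 and 428 CPM in KO cells, with a tight pair in each genotype, and rose 1.58-fold (log2 fold change 0.66, SE 0.17, adjusted p = 0.0343). Sparc was not called without KO1 or without KO2.

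The 4 linker genes of the basement membrane did not pass the test in edgeR or DESeq2, and 0 had an unadjusted p under 0.05. Nid2 was at 331 and 211 CPM in WT cells and 352 and 264 CPM in KO cells (log2 fold change 0.18, SE 0.26, adjusted p = 0.647), with overlapping groups. Nid1, Hspg2 and Agrn had log2 fold changes of -0.41 (adjusted p = 0.258), -0.57 (adjusted p = 0.175) and -0.41 (adjusted p = 0.224). In all 4 of these genes WT1 was higher than WT2, by 1.43-fold for Agrn to 1.74-fold for Hspg2, and Fn1 and Lamc1 were 2.2-fold and 2.0-fold higher in WT1. Of the 20 genes with a mean FPKM of at least 10, 14 were higher in WT1 than in WT2 and 16 were higher in KO1 than in KO2, whereas 30 of the 35 tested collagens were lower in WT1. The WT pair was more than 2-fold apart in 20 of the 68 tested genes, with Col14a1 left out as above, and the KO pair in 8. For Fn1, Lamc1 and the 4 linker genes the WT libraries thus differed from each other by more than the genotypes did.

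Collagens made up 44 of the genes but were mostly low. Of the 35 tested, 4 rose (Col6a5, Col2a1, Col11a1 and Col1a1) and 3 fell (Col20a1, Col5a3 and Col26a1), and the median log2 fold change was 0.17. Type IV collagen, the network collagen of basement membranes, had 4 tested genes and none was called in edgeR or DESeq2 (1 had an unadjusted p under 0.05). Col4a1 was at 85.1 and 112 CPM in WT1 and WT2 and at 84.1 and 92.1 CPM in KO1 and KO2 (log2 fold change -0.16, SE 0.20, adjusted p = 0.593). Col4a2, transcribed from the neighbouring start site in the other direction, was at 51.2 and 96.4 CPM in WT cells and 44.0 and 55.5 CPM in KO cells (log2 fold change -0.57, SE 0.30, adjusted p = 0.210). Both groups overlapped in both genes, and WT2 was the highest library in each. Without WT1, Col4a2 was called at -0.98 (adjusted p = 0.000123). The Col4a1 to Col4a2 FPKM ratio was 1.47 and 1.03 in WT cells and 1.69 and 1.47 in KO cells.

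Col18a1, whose protein carries the endostatin fragment, was the collagen of highest FPKM. It was at 186 and 146 CPM in WT cells and 327 and 233 CPM in KO cells, with both KO values higher. The log2 fold change of 0.75 (SE 0.23) was just outside the threshold (adjusted p = 0.0526), and the gene was called under 9 of the 16 alternatives. Col9a2, a chain of the fibril-associated collagen IX of cartilage, was at 51.5 and 70.2 CPM in WT cells and 51.9 and 60.4 CPM in KO cells. Its log2 fold change was -0.12 (SE 0.22, adjusted p = 0.733), and the groups overlapped.

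The fibrillar collagens, which form the banded fibrils of cartilage, bone and skin, were the collagen class with the most tested genes and the most above WT. Of the 11 genes 10 were tested, and 3 rose and 1 fell. In 8 of the 10 both KO values lay above both WT values, which held for 34.3% of protein-coding genes. The median log2 fold change was 1.23. Among the 8, Col1a2 (3 and 5 reads in WT, 18 and 16 in KO) and Col24a1 (1 and 5, 13 and 21) passed the filter only through their KO reads. For Col1a2 and Col24a1 the filter thus nearly fixed a place above WT. Col5a2 (8 and 11 reads in WT, 24 and 11 in KO) also needed its KO reads to pass, and had 11 reads in both WT2 and KO2. The count of 8 and the median are therefore description only. Col2a1, the main collagen of cartilage, was at 7.73 and 11.3 CPM in WT cells and 38.0 and 30.3 CPM in KO cells, and rose 3.57-fold (log2 fold change 1.84, SE 0.28, adjusted p = 0.00562). Col11a1, its partner in cartilage fibrils, had 77 and 86 reads in WT cells and 199 and 217 in KO cells (log2 fold change 1.35, SE 0.31, adjusted p = 0.0207). Neither gene's groups overlapped, but Col11a1 was not called without KO1 or without KO2. Col1a1, the main chain of bone and skin collagen, rose by 1.29 on the log2 scale (SE 0.33, adjusted p = 0.0308), and its partner chain Col1a2, with at most 18 reads in a library, was at 2.06 (adjusted p = 0.0515). Col1a1 was not called without either KO library.

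The only fibrillar gene called as a fall was the most abundant one. Col5a3, a minor chain of type V collagen, was at 69.5 and 88.7 CPM in WT cells and 28.8 and 36.1 CPM in KO cells, and fell by 1.29 on the log2 scale (SE 0.22, adjusted p = 0.00815). It was not called without KO1 (adjusted p = 0.0511). Col5a1 was not above WT either, with overlapping groups and a log2 fold change of -0.28 (SE 0.36, adjusted p = 0.614). Col5a3 and Col5a1 held more FPKM than the rising genes in WT cells. The summed FPKM of the fibrillar class overlapped between genotypes, at 15.4 and 23.5 in WT and 17.5 and 18.1 in KO.

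Col6a5 had the largest rise of the collagens. It had 9 and 26 reads in WT1 and WT2 and 128 and 130 in KO1 and KO2, a 7.45-fold rise (log2 fold change 2.90, SE 0.51, adjusted p = 0.00920). With WT1 under the filter's minimum count of 10, Col6a5 passed the filter only with its KO reads, which favours a rise. It lies on chromosome 9 between Col6a6 and Col6a4, 27918 and 28811 bases from them in the files' coordinates. These neighbours, chains of the same collagen VI family, were at -0.89 (adjusted p = 0.292) and -0.98 (adjusted p = 0.189), and neither was called. Col20a1, a fibril-associated collagen, was at 16.2 and 36.7 CPM in WT cells and 2.19 and 9.48 CPM in KO cells. Both pairs were wide, and the fall of 2.17 on the log2 scale (SE 0.64) passed the test by little (adjusted p = 0.0480) and was lost without KO1, under DESeq2 and under 5 other alternatives. Col26a1 fell by 1.02 (SE 0.28, adjusted p = 0.0405), and was not called without KO1 or without KO2.

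**Figure D4:**
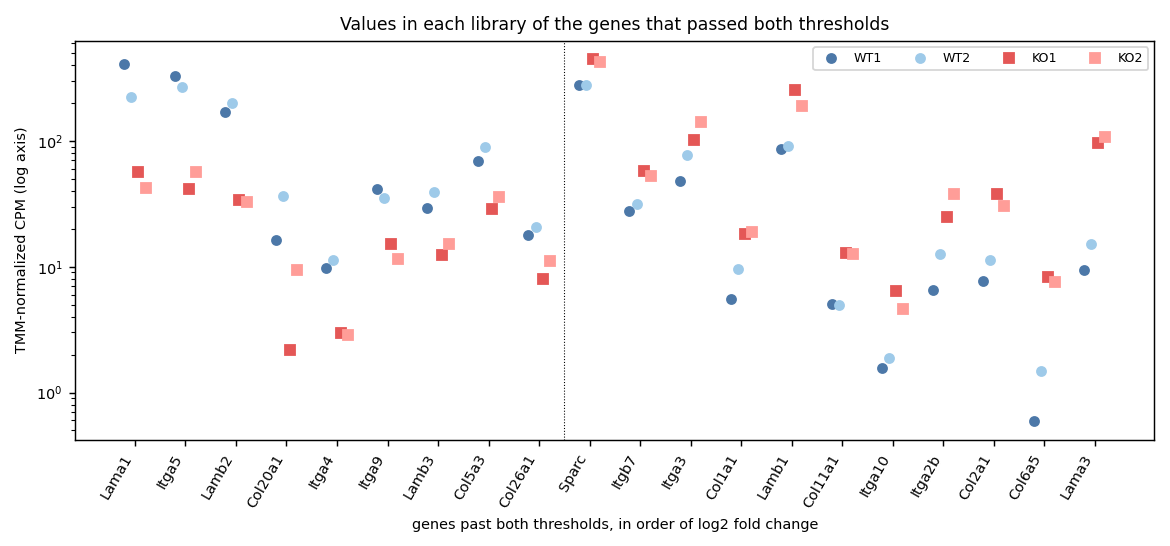
TMM-normalized CPM (y axis, log scale) of the 20 genes that passed both thresholds (x axis, in order of log2 fold change), with circles for WT1 and WT2 and squares for KO1 and KO2. In each gene both KO libraries lie on the same side of both WT libraries, and the WT circles of Col6a5 and Col20a1 are the widest apart.

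Position on the chromosome moved with some of these calls. Chromosome medians are given relative to the median over all genes tested. The median log2 difference of KO from WT over the tested genes of chromosome 8 was 0.51 in KO1 and 0.52 in KO2. Over those of chromosome 11 it was 0.51 and 0.48, while the median of every other chromosome lay between -0.20 and -0.0041. Between WT1 and WT2 the medians of these chromosomes differed by only 0.02 and 0.03. Of all genes tested on chromosome 11, 26.7% rose, and on chromosome 8 it was 26.1%. Chromosome 11 carries 7 of the matrix and integrin genes, and 4 of them rose: Col1a1, Itga3, Itga2b and Sparc. With the median of each chromosome removed from each KO library, none of these 4 was called (log2 fold changes 0.79, 0.46, 1.21 and 0.16). Chromosome 8 carries Col4a1, Col4a2 and Itgb1, none of which was called in edgeR or DESeq2 or had an unadjusted p under 0.05. With the chromosome medians removed, Col4a2 was called at -1.08 (adjusted p = 0.0458), Col4a1 was at -0.67 (adjusted p = 0.0526) and Itgb1 at -0.52 (adjusted p = 0.0868). The cause of the shift of these chromosomes was not tested. The calls for Itga5, Lama1, Lama3, Lamb1 and Lamb2, which lie on other chromosomes, were kept.

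**Figure D5:**
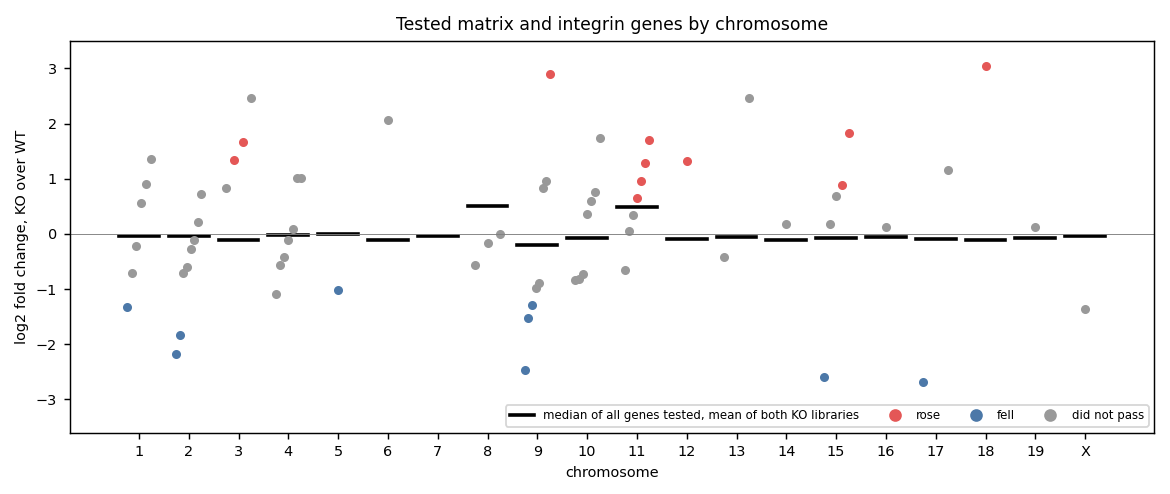
Log2 fold change of the tested matrix and integrin genes reported here (points, y axis) by chromosome (x axis). Black lines are the median of all genes tested on each chromosome, averaged over both KO libraries, less the median over all genes tested. Red genes rose, blue genes fell and grey genes did not pass; the black lines of chromosomes 8 and 11 lie near 0.51 and 0.50 and the others near 0.

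Other genes of the matrix and adhesion pathway were read from 6 lists of 133 genes, of which 122 were tested. Of these 12 rose (9.8%) and 20 fell (16.4%), beside 11.5% and 10.2% of protein-coding genes. Of the 18 tested genes for collagen folding and secretion, 2 rose and 2 fell. P4hb (log2 fold change 1.14, adjusted p = 0.0118) and Hsp90b1 (1.12, adjusted p = 0.0205), general folding enzymes and chaperones of the endoplasmic reticulum, rose. Serpinh1, the collagen-specific chaperone, was at 158 and 197 CPM in WT cells and 68.3 and 91.8 CPM in KO cells and fell by 1.15 (SE 0.22, adjusted p = 0.0117), and P3h4, part of a collagen lysine hydroxylation complex, fell by 0.97 (adjusted p = 0.0285).

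Of the 12 tested genes for collagen processing and crosslinking, 1 rose and 2 fell. Loxl2, a lysyl oxidase that crosslinks collagen, had 654 and 578 reads in WT cells and 51 and 110 in KO cells, with a fall of 2.97 on the log2 scale (SE 0.35, adjusted p = 0.00257). Loxl1, a related enzyme of elastic fibres, fell by 2.08 (adjusted p = 0.00441). Adamts3, a procollagen N-proteinase, had 3 and 7 reads in WT cells and 17 and 35 in KO cells (log2 fold change 2.34, adjusted p = 0.0419). It passed the filter on low counts only through its KO reads, so this rise is weak. Among 22 tested proteases and inhibitors 1 rose and 1 fell, and the fall was that of Mmp11, a matrix metalloproteinase (log2 fold change -1.57, adjusted p = 0.0029).

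The list of other matrix glycoproteins and receptors had 6 rises and 5 falls among 29 tested genes. Bcam, a receptor for the laminin alpha 5 chain, was at 476 and 393 CPM in WT cells and 94.4 and 105 CPM in KO cells and fell by 2.12 (SE 0.20, adjusted p = 0.0011). Dag1, the laminin receptor dystroglycan, fell by 1.22 (SE 0.21, adjusted p = 0.00844), from 289 and 210 CPM in WT cells to 108 and 105 CPM in KO cells. Both non-integrin laminin receptors were thus lower in both KO libraries. Fbln2, a laminin-binding fibulin, was at 3.08 and 10.5 CPM in WT cells and 37.7 and 41.0 CPM in KO cells (log2 fold change 2.52, SE 0.49, adjusted p = 0.0122), and Ddr1, a collagen receptor kinase, rose by 0.77 (adjusted p = 0.0325). Of the 4 tested integrin chains outside the rule Itgal rose by 1.18 (adjusted p = 0.0142), while Itgav, the vitronectin receptor alpha chain, was at 0.44 (SE 0.23, adjusted p = 0.214).

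The integrin adhesion complex, the proteins that couple integrins to actin and signalling, was the list with the most falls. Of its 37 genes, all tested, 10 fell (27.0%) and 1 rose (2.7%), beside 10.2% and 11.5% of protein-coding genes. The median log2 fold change was -0.40, beside 0.02 for protein-coding genes. Both KO libraries lay below both WT libraries in 20 of the 37 genes, beside 31.9% of protein-coding genes. Vasp, an actin regulator, fell by 1.75 (SE 0.22, adjusted p = 0.00296), and Cd81, a tetraspanin that binds integrins, fell by 0.77 (adjusted p = 0.0264). Ptk2b, a focal adhesion kinase relative, had 167 and 239 reads in WT cells and 759 and 796 in KO cells and was the gene that rose (log2 fold change 1.94, SE 0.22, adjusted p = 0.00222). The other falls, named after their values were seen, were Fermt2, Parva, Parvg, Lims2, Fyn, Tgfb1i1, Cd9 and Cd151. Without KO1 or without KO2 the number of falls was 5.

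Markers of other cell types were read because matrix genes are often made by them. Of 10 ES cell markers 1 fell (Zfp42, log2 fold change -2.64, adjusted p = 0.000704), and Pou5f1 had 9315 reads or more in every library. The summed ES cell level was 7506 and 6103 CPM in WT cells and 5454 and 5108 CPM in KO cells. Both KO libraries lay below both WT libraries in 5 of the 10 markers and above in 3, beside 31.9% and 34.3% of protein-coding genes. The median log2 fold change of the 10 was -0.32. Of 13 fibroblast and mesenchyme markers 5 were tested and 0 were called in edgeR or DESeq2, with 0 at an unadjusted p under 0.05. Their summed level was 64.6 and 130 CPM in WT cells and 99.1 and 120 CPM in KO cells, and Dcn and S100a4 had no reads. Of 15 endoderm markers 12 were tested and Sox7 fell, with 273 and 162 reads in WT cells and 4 and 16 in KO cells. The summed endoderm level was 81.8 and 105 CPM in WT cells and 89.6 and 93.9 CPM in KO cells, and Foxa2, Afp and Ttr had at most 3 reads. Of 7 trophoblast markers 5 were tested and Tfap2c rose (log2 fold change 1.81, adjusted p = 0.00445). Both KO libraries lay above both WT libraries in 3 of the 5 and below in 0, and the median log2 fold change was 1.11. The summed trophoblast level was 62.4 and 49.5 CPM in WT cells and 175 and 152 CPM in KO cells, while Cdx2 had 0 and 3 reads in WT cells and 0 and 16 in KO cells. Of 8 endothelial markers 6 were tested and 0 were called in edgeR or DESeq2 (1 had an unadjusted p under 0.05). Of 8 neural progenitor markers 5 were tested, 1 rose and 1 fell. Of 7 primed epiblast markers 5 were tested and Pou3f1 fell. The part of other cell types in the laminin and collagen results was not tested.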

How the data were processed

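RNA-seq was performed on E14 mESCs in 4 libraries, 2 WT and 2 Npac KO. The authors sequenced paired-end reads and deposited raw read counts per gene. The submitters' processing notes name CASAVA, HISAT2 2.0.5, featureCounts 1.5.0-p3 and mm10, while strand use is not given in the sources used here. FPKM values deposited beside them are these counts divided by gene length and by 1 constant for each library. The gene coordinates in the files differ from GENCODE M21 on GRCm38 (3 of the 81 genes have the same start and end), so only the RefSeq promoter windows carry GRCm38.p6 positions.

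The test used edgeR 4.0.16 in R 4.3.3, with filterByExpr, TMM factors and the quasi-likelihood test, and alternatives used DESeq2 1.42.0 and limma 3.58.1 with a pseudocount of 0.1 or 1 FPKM. Every fit ran over the whole table with Benjamini-Hochberg adjustment over the genes it tested (18157 in the edgeR test, other numbers where the filter or libraries changed), and all adjusted p values in the text are from this test unless another is named. All tests were two-sided. Depth was 15850805 to 16965120 reads, and floors cover counting error only.

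The genes, lists and tests were chosen with earlier results of these data known. Genes named with values are, in each family, the 3 of highest mean FPKM and the 3 largest rises and falls past both thresholds, with the partners Col4a1 and Col4a2, Lama1, Lamb1 and Lamc1, Itga6 and Itgb1, and Itga5 and Fn1, and, from each other list, the 2 called genes of highest mean count in each direction and Itgav. Other named genes were chosen after their values were seen. WT and KO libraries share only the replicate numbers 1 and 2. A few tested genes are left out of the text and figures.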

Additional observations from a re-analysis of the deposited data

How the results depend on the processing

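In the matrix and integrin genes 11 rises and 9 falls were counted. Without a filter on low counts 17 genes rose, and with limma on log2(FPKM + 0.1) 8 rose and 7 fell under the same filter and 2 rose and 3 fell without it. With an unadjusted p in place of the adjusted p, 17 rose and 14 fell. With 1 library left out the rises ranged from 4 to 22 and the falls from 4 to 19, and a lone library was assumed to vary like the other pair. With the replicate block 19 rose and 18 fell. The libraries share only a number, and the deviations of WT1 and KO1 from their group means correlated at 0.33 across genes. In the 6 lists 12 genes rose and 20 fell. There 19 rose without the filter, 24 with the block and 24 with the unadjusted p. With unfiltered FPKM 1 rose and 8 fell. With 1 library left out the list rises ranged from 6 to 31 and the falls from 12 to 32. The falls of the adhesion complex, 10 in all, were 3 with unfiltered FPKM and 5 to 15 with 1 library left out. The cause of these differences was not tested. The other counts stayed within 1.5 times, and Glyr1 was called in each alternative, at -2.39 to -1.87 with 1 library left out.

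Genes near 0 changed sign without being called. Itgb1 was at 0.029 with upper-quartile factors, 0.0048 without the filter and 0.00099 with at least 10 reads in every library. With 1 library left out Itgb1 ranged from -0.12 to 0.11, Col4a1 from -0.37 to 0.046, Col9a2 from -0.35 to 0.12, Itgb5 from -0.035 to 0.28 and Nid2 from -0.11 to 0.52. The block added calls for Col18a1, Fn1, Itga6 and Lamc1 and lost none of the 20. Having 2 libraries a group and low counts of many collagens limit what can be called here.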
